A study of Mus musculus with 17 samples.

Results

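The 9 genes of mesenchymal adhesion and contraction described here were measured in mouse rhabdoid tumors. Such tumors arise in young children when Smarcb1, part of the SWI/SNF chromatin remodeller, is lost. They were taken from a list of names: Vim, Cd44, Cdh2, Cdh11, Acta2, Tagln, Cnn1, Myl9 and S100a4. All 9 were found among the 50600 gene IDs of the files, and all 9 passed the filter on low counts that left 21494 genes. Messenger RNA was measured in 17 C57BL/6J libraries. Healthy brain (n = 3) was labelled WT. The tumors were labelled SMARCB1 -/- and fell into 4 groups. CNS tumors were of the SHH subtype in 3 libraries and of the Myc subtype in 4. Another 4 tumors lay outside the skull (extracranial), and 3 were syngeneic grafts, tumor tissue grafted into the flank of syngeneic hosts. The allele or Cre line behind the deletion, the ages of the animals, and the donor tumor of the grafts are not given in the sources used here. The design text calls the tumors separate and the brains biological replicates. Whether the 3 grafts came from 1 donor tumor was not given, so p-values there measure only the spread between libraries at hand, not between donors. The main fit took all 17 libraries together with 1 spread per gene. Its p-values for grafts thus draw on every group, not on the grafts alone. A graft also holds stroma and blood cells of its host.

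Mesenchymal cells hold their shape and move with a cytoskeleton of vimentin filaments and contractile actin bundles, and grip their surroundings through cadherins and matrix receptors. Epithelial and neural cells that take on such a state are known to gain vimentin, Cd44 and S100a4 and to switch the cadherins they carry. Smooth muscle cells and myofibroblasts add a contractile set (Acta2, Tagln, Cnn1 and Myl9) that the factor SRF and its partners switch on through a DNA element called the CArG box. In the brain, N-cadherin (Cdh2) joins neural cells, while the contractile set marks the walls of blood vessels.

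Total counts ran from 18685672 to 130835711 per library. Smarcb1 stood at 119.0 to 131.9 CPM (counts scaled to library size, with TMM factors) in brain and at 2.51 to 33.2 CPM in the tumors. Neuron markers (8 genes) summed to 4501 to 5504 CPM in brain, 382 to 2947 in SHH tumors and at most 439 CPM in each other tumor. A few libraries held transcripts of other tissue. The 6 pituitary markers summed to 1368 CPM in Healthy brain 1 and 192.6 CPM in Myc CNS tumor 1, against at most 4.71 CPM in the other 15 libraries. The 12 skeletal muscle markers summed to 337 CPM in Healthy brain 1, 166 and 111 CPM in Extracranial tumor 1 and 2 and 104.6 CPM in Myc CNS tumor 1, against 3.44 to 31.7 CPM elsewhere. SHH CNS tumor 1 held 9130 CPM of oligodendrocyte markers, against at most 202 CPM in the other libraries. In bulk tissue, fewer cells of a type and less RNA per cell cannot be told apart.

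The 9 genes did not move as 1 group. Vim and Cd44 rose in Myc tumors, extracranial tumors and grafts against both brain and SHH tumors. S100a4 rose and Cdh2 fell in Myc and extracranial tumors against both. Cdh2 also fell in grafts against brain, and Cdh11 fell in the grafts. Acta2, Tagln, Cnn1 and Myl9 passed the test in none of the 10 comparisons by the edgeR quasi-likelihood test (Benjamini-Hochberg adjusted p under 0.05 over 21494 genes).

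Against brain, 3 of 9 rose and 1 fell in Myc tumors, where 25.3% of all tested genes were called higher and 26.8% lower. In extracranial tumors 3 rose and 1 fell, beside 26.1% of all genes higher and 26.1% lower. In grafts 2 rose and 2 fell, beside 24.9% and 30.4% of all genes. In SHH tumors none of the 9 was called by edgeR, beside 2.44% of all genes higher and 1.94% lower. Only Vim had an unadjusted p under 0.05 there. DESeq2 called 0 members in SHH tumors against brain, limma voom 4 (Vim, Myl9 and S100a4 higher, Cdh2 lower), and edgeR on those groups alone 2 (Vim higher, Cdh11 lower). Of all genes these runs called 13.4%, 34.9% and 5.82%.

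Against SHH tumors, 3 members rose and 1 fell in Myc tumors, beside 19.0% and 21.9% of all genes. Extracranial tumors again had 3 higher and 1 lower, beside 18.6% and 19.7%. Grafts had 2 higher and 1 lower, beside 20.4% and 25.8%. Between extracranial and Myc tumors edgeR and limma voom called none of the 9, with 0 members at an unadjusted p under 0.05 in edgeR. DESeq2 called none of the 8 for which it gave an adjusted p. Of all genes 0.0% were called higher and 0.0186% lower in that comparison. In grafts against Myc tumors 1 member fell (3.12% of all genes higher, 2.88% lower), and against extracranial tumors 2 fell (2.16% and 2.62%). A count of 3 in 9 beside a background of 18.6% to 26.1% says little about the genes as a group. Comparisons with brain share its 3 libraries, and those with SHH tumors share theirs.

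**Figure D1:**
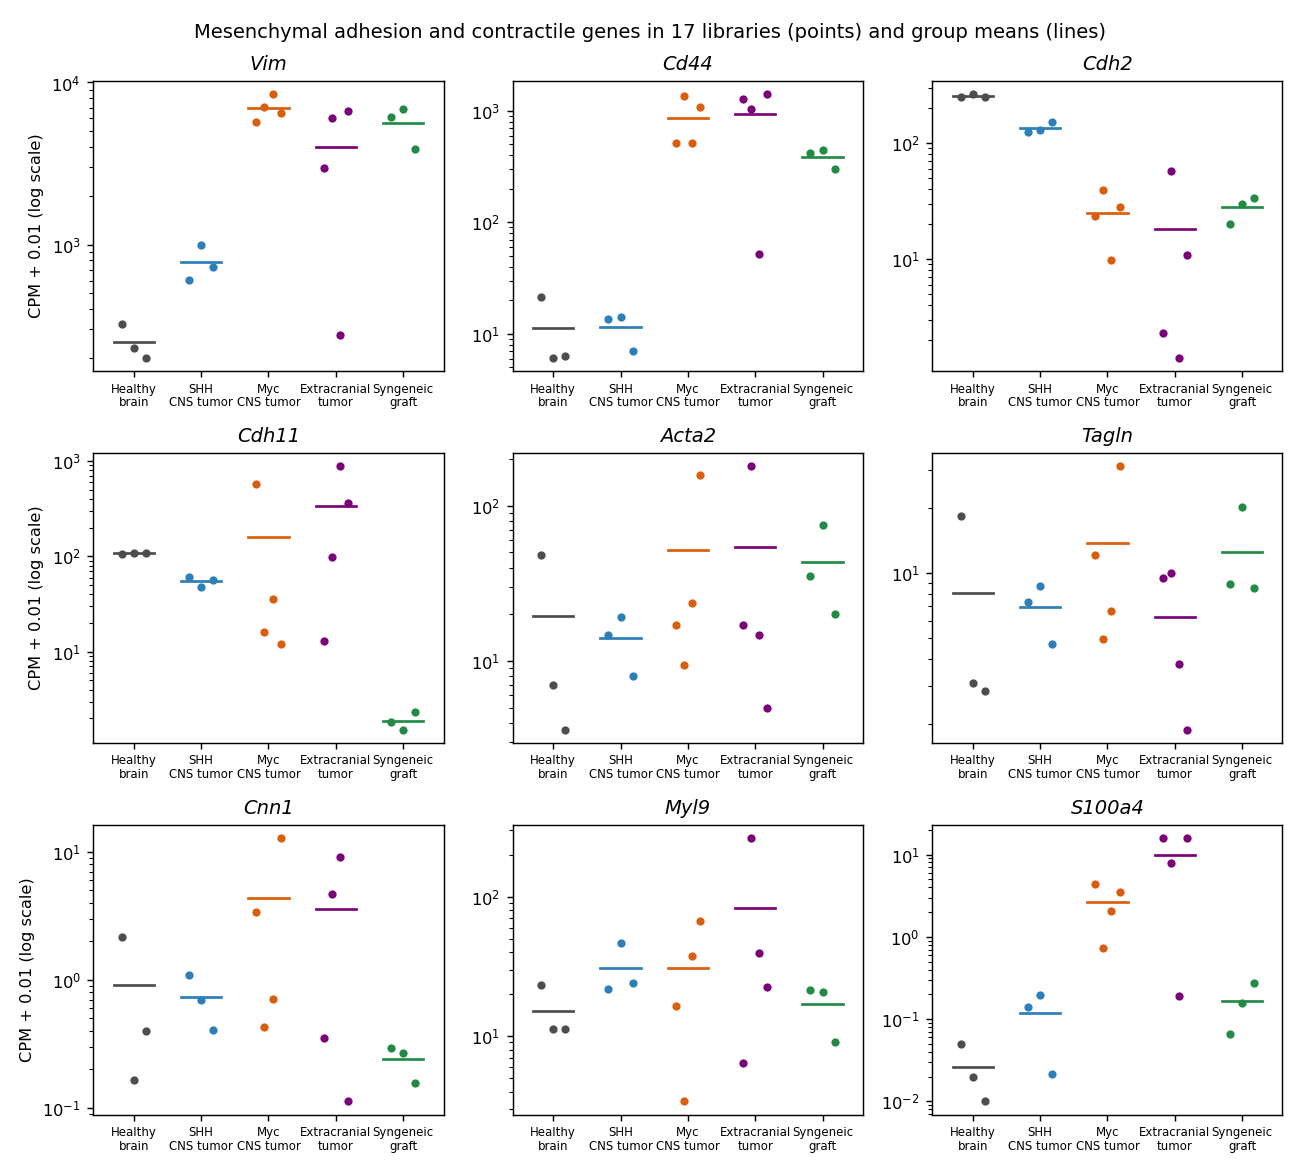
CPM plus 0.01 on a log scale for each of the 9 genes (panels) in the 5 groups (x axis); each point is a library and each line a group mean. Vim lies between 5745 and 8467 CPM in the 4 Myc tumors and between 200.3 and 324.7 CPM in the 3 brains, while Acta2, Tagln, Cnn1 and Myl9 overlap between brain and each of the 4 tumor groups.

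**Figure D2:**
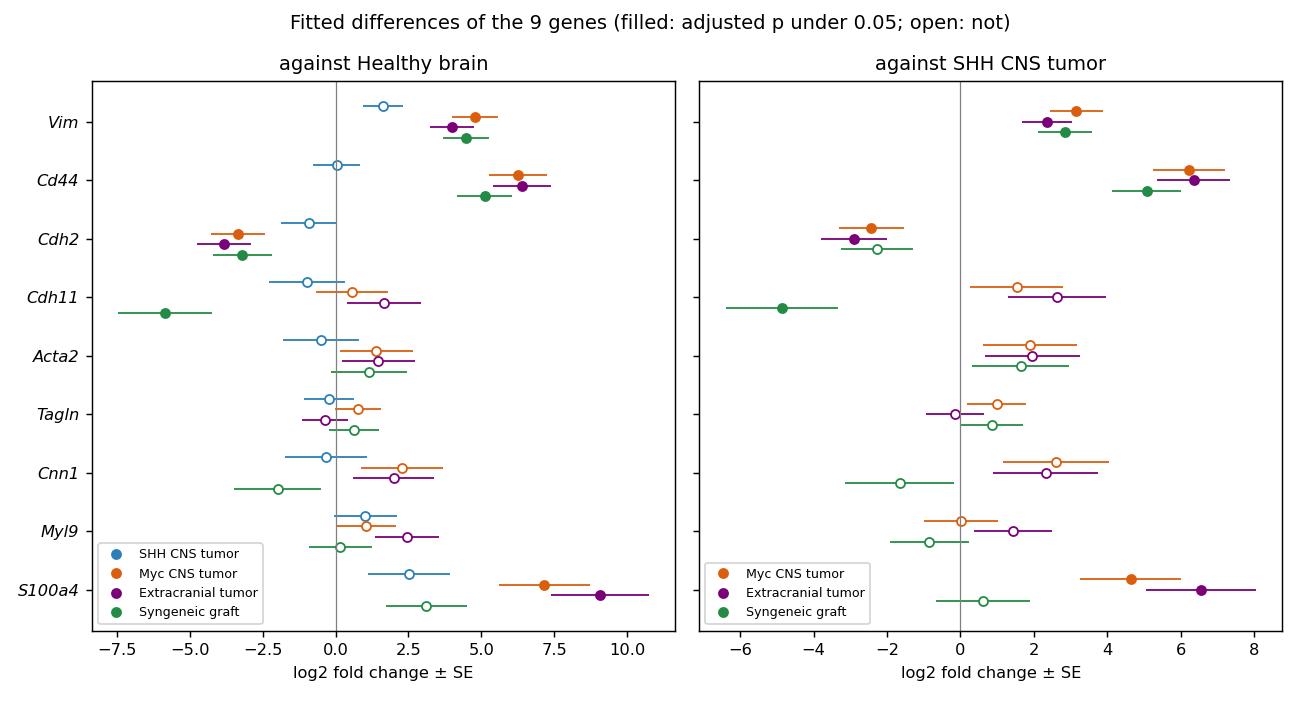
Fitted log2 fold change with its SE (x axis) for the 9 genes (y axis) against healthy brain (left) and SHH tumors (right), coloured by tumor group; filled points passed the adjusted p threshold and open points did not. Vim and Cd44 are filled on the right of 0 in Myc tumors, extracranial tumors and grafts, Cdh2 lies left of 0 throughout, and Cdh11 is called only in the grafts.

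Vimentin, the intermediate filament protein of mesenchymal cells, is encoded by Vim (ENSMUSG00000026728.9, mouse build GRCm38, chromosome 2, bases 13573927 to 13582826, plus strand). In brain Vim stood at 325, 231 and 200.3 CPM. The SHH tumors held 608, 993 and 731 CPM, above every brain library. Myc tumors reached 5745, 7067, 8467 and 6490 CPM. The extracranial tumors had 2973, 6025, 276 and 6688 CPM, so that Extracranial tumor 3 lay inside the range of brain while the others did not. Grafts held 6104, 6826 and 3881 CPM.

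Vim rose 27.6-fold in Myc tumors against brain (log2 fold change 4.78 ± 0.78 SE, edgeR adjusted p = 0.000233). The rise was 22.2-fold in grafts (4.48 ± 0.78, adjusted p = 0.000337) and 15.8-fold in extracranial tumors (3.99 ± 0.75, adjusted p = 0.000631). Against SHH tumors Vim rose 8.93-fold in Myc tumors (3.16 ± 0.72, adjusted p = 0.00359) and 7.21-fold in grafts (2.85 ± 0.73, adjusted p = 0.00582). The rise against SHH tumors was 5.13-fold in extracranial tumors (2.36 ± 0.69, adjusted p = 0.0153), where the libraries overlapped. That call was lost without SHH CNS tumor 1 (adjusted p = 0.061), without the 4 libraries named above (0.0838) and on those groups alone (0.117). SHH tumors against brain gave 1.63 ± 0.70 with an adjusted p of 0.191. From the lowest to the highest group mean the order was brain, SHH, extracranial, graft and Myc, and only the step from SHH to extracranial tumors passed the test.

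Vimentin was the most abundant of the 9 genes per length of transcript in every group. It averaged 53.1 ± 13.7 CPM per kb of exon (SD, n = 3) in brain and 1464 ± 243 (SD, n = 4) in Myc tumors. Among the other 8, Cdh2 had the highest mean level per kb in brain, 31.6 ± 0.93 (SD, n = 3), Myl9 in SHH tumors, 26.5 ± 11.9 (SD, n = 3), and Cd44 in Myc tumors, extracranial tumors and grafts. Cd44 averaged 128 ± 62.2 (SD, n = 4), 139.9 ± 90.9 (SD, n = 4) and 57.5 ± 11.6 CPM per kb (SD, n = 3) there, still well under Vim.

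The other intermediate filament genes moved in both directions. Of 12 listed genes 4 rose and 2 fell in Myc tumors against brain, beside 25.3% of all genes higher and 26.8% lower, with a median log2 fold change of 1.37, against -0.01 over all tested genes. In extracranial tumors 4 rose and 4 fell (median -0.48, against 0.05), beside 26.1% of all genes in each direction. In grafts 3 rose and 4 fell (median 0.42, against -0.16), beside 24.9% and 30.4%. These counts lie near the shares of all genes. Lmna, which encodes nuclear lamins A and C, rose by 3.91 ± 0.53 in Myc tumors (adjusted p = 5.6e-05), 4.17 ± 0.54 in extracranial tumors and 3.61 ± 0.53 in grafts. Ina, the neuronal filament gene for alpha-internexin, fell in the same groups, with log2 fold changes of -9.06 ± 1.32, -9.20 ± 1.33 and -12.31 ± 1.73. In brain Ina stood at 471 ± 120 CPM (SD, n = 3).

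Cd44, the cell surface receptor for hyaluronan (ENSMUSG00000005087.17, chromosome 2, bases 102811141 to 102901665, minus strand), was low in brain at 21.5, 6.08 and 6.27 CPM. SHH tumors overlapped with brain, at 13.6, 14.2 and 7.02 CPM. Myc tumors held 517, 1357, 518 and 1088 CPM. Extracranial tumors held 1277, 1049, 52.0 and 1413 CPM, of which the low value is Extracranial tumor 3, and grafts 423, 447 and 299.9 CPM. Every Myc, extracranial and graft library exceeded every brain and SHH library.

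Cd44 rose 77.1-fold in Myc tumors (6.27 ± 0.99, edgeR adjusted p = 0.00018), 84.0-fold in extracranial tumors (6.39 ± 0.997, adjusted p = 0.000153) and 34.5-fold in grafts (5.11 ± 0.95, adjusted p = 0.000518) against brain. Against SHH tumors the rises were 75.0-fold (adjusted p = 0.000372), 81.8-fold (0.000328) and 33.6-fold (0.000822). SHH tumors and brain gave a difference of 0.04 ± 0.80 (adjusted p = 0.985). Grafts lay below all 4 Myc tumors, but this difference did not pass (-1.16 ± 0.77, adjusted p = 0.375). The Cd44 calls against brain and against SHH tumors held in every alternative run.

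Among 13 ligands and membrane partners of Cd44, 6 rose and 1 fell in Myc tumors against brain (median log2 fold change 1.15, against -0.01 over all genes), beside 25.3% of all genes higher and 26.8% lower. In extracranial tumors 7 rose and 1 fell (median 1.28, against 0.05), beside 26.1% and 26.1%, and in grafts 5 rose and 4 fell (median 0.55, against -0.16), beside 24.9% and 30.4%. Msn encodes moesin, which ties the tail of Cd44 to actin. It rose by 2.95 ± 0.52 in Myc tumors (adjusted p = 0.000401) and 3.65 ± 0.54 in extracranial tumors (adjusted p = 0.000102). Has3, a hyaluronan synthase, fell against brain in Myc tumors (-3.93 ± 0.65), extracranial tumors (-3.61 ± 0.64) and grafts (-4.80 ± 0.76). Cd74, the invariant chain of antigen presentation and a partner of Cd44, rose in all 4 tumor groups against brain, by 6.23 ± 1.43 in SHH tumors and 12.05 ± 1.81 in grafts. Against SHH tumors, Spp1, which encodes the Cd44 ligand osteopontin, rose by 4.88 ± 1.63 in Myc tumors (adjusted p = 0.0277).

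Markers of other cells were summed beside Vim and Cd44. The 10 macrophage and monocyte markers, all detected in every library, summed to 61.1 to 102.4 CPM in brain and 380 to 554 CPM in SHH tumors. Their sum was 1710 to 5465 CPM for Myc tumors, 2838 to 8798 CPM for extracranial tumors and 6999 to 10660 CPM for grafts. The 10 fibroblast markers, also all detected everywhere, summed to 523 to 4241 CPM in brain, highest in Healthy brain 1, and 483 to 796 CPM in SHH tumors. They reached 4162 to 16030 CPM for Myc tumors, 8157 to 22150 for extracranial tumors and 2279 to 2596 for grafts. Radial glia and neural progenitor markers (8 genes) summed to 1172 to 1254 CPM in brain and 1361 to 1780 in SHH tumors. Their sum was 172 to 740 CPM for Myc tumors, 54.9 to 366 for extracranial tumors and 45.1 to 426 for grafts. Endothelial markers (8 genes) summed to 220 to 271 CPM in brain, 93.0 to 195 in SHH tumors and 205 to 363 in Myc tumors. Extracranial tumors held 115 to 398 CPM of them and grafts 451 to 513.5 CPM. Extracranial tumor 3, named here for its low Vim (276 CPM) and Cd44 (52.0 CPM), had a fibroblast sum of 9307 CPM. Its macrophage sum of 2838 CPM was the lowest of its group. The part of all these cells in the levels of Vim and Cd44 was not tested.

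**Figure D3:**
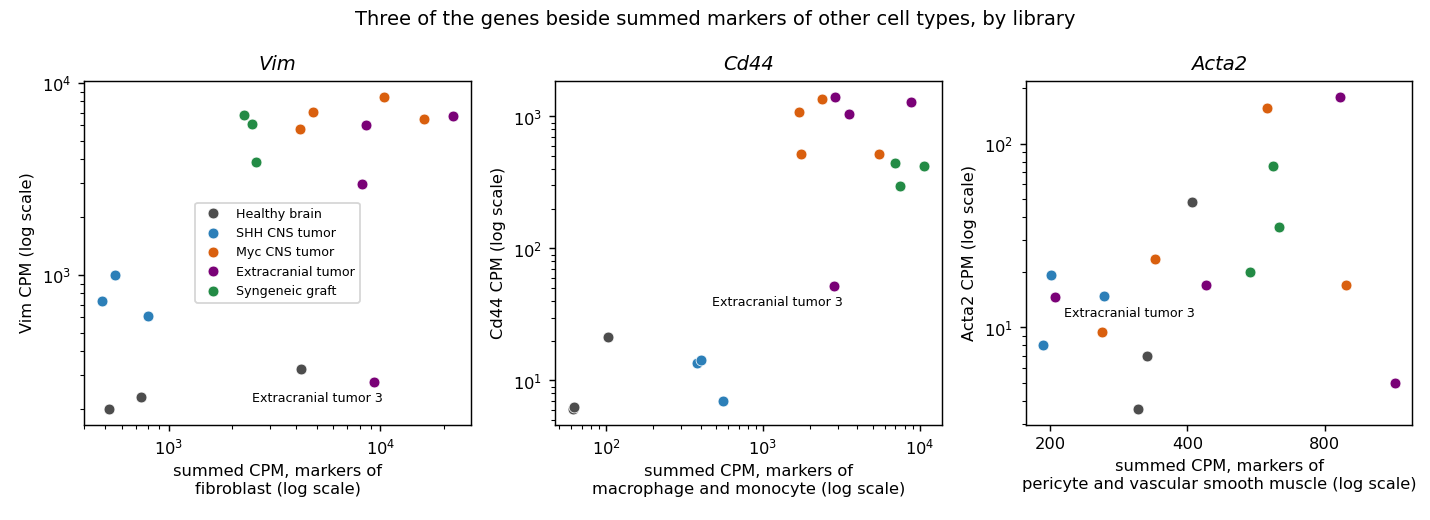
Vim, Cd44 and Acta2 CPM (y axes, log scale) beside the summed CPM of fibroblast, macrophage and pericyte markers (x axes, log scale) in the 17 libraries, coloured by group. Extracranial tumor 3, labelled for its low Vim, lies at 9307 CPM of fibroblast markers with 276 CPM of Vim, below the other libraries with sums as high. The part of these cells in the levels was not tested.

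N-cadherin, encoded by Cdh2, holds neural cells together. Cdh2 stood at 250.4, 263 and 250.1 CPM in brain and at 124, 129.7 and 152 CPM in SHH tumors. Myc tumors had 23.4, 39.4, 9.90 and 27.9 CPM, extracranial tumors 2.29, 57.8, 1.40 and 10.9 CPM and grafts 20.02, 29.99 and 33.7 CPM. The groups formed 3 tiers that did not overlap: brain, then SHH tumors, then all other tumors.

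Cdh2 fell 10.1-fold in Myc tumors (-3.34 ± 0.91, edgeR adjusted p = 0.00746), 14.0-fold in extracranial tumors (-3.81 ± 0.93, adjusted p = 0.00365) and 9.12-fold in grafts (-3.19 ± 1.01, adjusted p = 0.0158) against brain. The fall in grafts did not pass without Syngeneic graft 1 (adjusted p = 0.0578). Against SHH tumors it fell 5.37-fold in Myc tumors (-2.43 ± 0.89, adjusted p = 0.0409) and 7.44-fold in extracranial tumors (-2.89 ± 0.90, adjusted p = 0.0207). The Myc call against SHH was lost without SHH CNS tumor 1, 2 or 3 (adjusted p = 0.071, 0.0729 and 0.0806) or Myc CNS tumor 1, 3 or 4 (0.0784, 0.0892 and 0.0663). The extracranial call was lost without Extracranial tumor 4 (adjusted p = 0.0514) and, on those groups alone, had an adjusted p of 0.121. Grafts against SHH tumors gave -2.27 ± 0.98 (adjusted p = 0.0695), which passed with limma voom (5.02e-05), on those groups alone (0.000724) and with total counts as the scale (0.0462). SHH tumors against brain gave -0.91 ± 0.94 (adjusted p = 0.604, and 0.0169 with limma voom). DESeq2 gave no adjusted p for Cdh2.

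Cadherin-11, a cadherin of mesenchymal and bone-forming cells, is encoded by Cdh11 (ENSMUSG00000031673.6, chromosome 8, bases 102632095 to 102785642, minus strand). Its levels hardly varied in brain, at 107, 108 and 108.5 CPM, or in SHH tumors, at 60.1, 47.9 and 57.2 CPM. Myc tumors ran from 12.0 to 571 CPM (571, 16.2, 35.9 and 12.0) and extracranial tumors from 12.8 to 889 CPM (12.8, 99.3, 889 and 362). Grafts held 1.83, 1.51 and 2.30 CPM, the lowest of all groups. The highest and lowest libraries differed 66.7-fold in extracranial and 45.9-fold in Myc tumors (on CPM plus 0.5), against 1.01-fold in brain and 1.39-fold in grafts.

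Cdh11 fell 57.3-fold in grafts against brain (-5.84 ± 1.60, edgeR adjusted p = 0.00704), and this call held in every alternative run. Grafts were 29.2-fold lower than SHH tumors (-4.87 ± 1.53, adjusted p = 0.0181), 84.3-fold lower than Myc tumors (-6.40 ± 1.62, adjusted p = 0.0366) and 181-fold lower than extracranial tumors (-7.50 ± 1.71, adjusted p = 0.0315). Each of these 3 calls was lost when Syngeneic graft 1, 2 or 3 was left out. The adjusted p was then 0.0569, 0.06 and 0.0536 against SHH tumors, 0.138, 0.128 and 0.123 against Myc tumors, and 0.13, 0.12 and 0.115 against extracranial tumors. The graft libraries nonetheless lay below every other library. The call against Myc tumors was also lost without Myc CNS tumor 1 (-3.55, adjusted p = 0.0573).

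Myc CNS tumor 1, with 571 CPM, set the sign of the Myc comparisons for Cdh11. With it the difference from brain was 0.56 ± 1.23 (adjusted p = 0.721), and without it -2.32 (adjusted p = 0.0589). Against SHH tumors it was 1.53 ± 1.27 (adjusted p = 0.348), and -1.38 without it (adjusted p = 0.255). Without all 4 libraries that held muscle or pituitary transcripts, an alternative chosen after seeing the data, Cdh11 was lower in Myc tumors than in brain (-2.33, adjusted p = 0.00316) and SHH tumors (-1.37, adjusted p = 0.0281). In that alternative it was higher in extracranial tumors than in brain (2.51, adjusted p = 0.00559), SHH tumors (3.46, adjusted p = 0.00131) and Myc tumors (4.84, adjusted p = 0.0118). Extracranial tumors against brain gave 1.66 ± 1.27 (adjusted p = 0.289), and 0.55 without Extracranial tumor 3 (adjusted p = 0.729). Skeletal muscle and pituitary markers were raised in Myc CNS tumor 1, and their part in its Cdh11 was not tested.

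Most of the listed cadherin and catenin genes were lower in the tumors in which Cdh2 fell. Of 17 cadherins and catenins 2 rose and 10 fell in Myc tumors against brain, beside 25.3% of all genes higher and 26.8% lower, with a median log2 fold change of -3.63, against -0.01 over all genes. In extracranial tumors 1 rose and 10 fell (median -3.65, against 0.05), beside 26.1% and 26.1%, and in grafts 2 rose and 9 fell (median -4.74, against -0.16), beside 24.9% and 30.4%. SHH tumors had 1 higher and 1 lower (median -0.49, against -0.02), beside 2.44% of all genes higher and 1.94% lower. Cdh10, a cadherin of neurons, averaged 42.7 ± 11.4 CPM in brain (SD, n = 3) and 57.85 ± 15.3 in SHH tumors (SD, n = 3), against 2.38 ± 2.37 in Myc tumors (SD, n = 4), 1.07 ± 0.42 in extracranial tumors (SD, n = 4) and 0.17 ± 0.07 in grafts (SD, n = 3). It fell in Myc, extracranial and graft tumors against both brain and SHH tumors (adjusted p at most 0.000115). Ctnna2, the neural alpha-catenin, fell against brain in Myc tumors (-8.32 ± 1.20) and extracranial tumors (-8.36 ± 1.20). Ctnna1, the alpha-catenin of most other tissues, rose against brain in SHH tumors (1.82 ± 0.31, adjusted p = 0.0091), Myc tumors (2.04 ± 0.30), extracranial tumors (2.06 ± 0.30) and grafts (2.29 ± 0.31). The sum of neuron markers, given above, was lower in the same tumors, and its part in the levels of these cadherins was not tested.

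The 4 contractile genes are known as targets of SRF, so the bases before their start sites are shown for the 3 that the RefSeq promoter table holds (GRCm38.p6, 250 bases before the start, 5' to 3' on the strand of the gene). Capitals mark the CArG box or a near form with 1 central C or G. Acta2 is on the minus strand at chr19:34255374-34255623, Myl9 on the plus strand at chr2:156775214-156775463 and Cnn1 on the plus strand at chr9:22099003-22099252.
Acta2: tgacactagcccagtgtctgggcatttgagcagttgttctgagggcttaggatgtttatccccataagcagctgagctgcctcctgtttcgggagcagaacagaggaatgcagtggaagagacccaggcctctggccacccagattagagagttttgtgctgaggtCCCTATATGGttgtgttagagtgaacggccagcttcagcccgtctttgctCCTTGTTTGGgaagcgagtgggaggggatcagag
Myl9: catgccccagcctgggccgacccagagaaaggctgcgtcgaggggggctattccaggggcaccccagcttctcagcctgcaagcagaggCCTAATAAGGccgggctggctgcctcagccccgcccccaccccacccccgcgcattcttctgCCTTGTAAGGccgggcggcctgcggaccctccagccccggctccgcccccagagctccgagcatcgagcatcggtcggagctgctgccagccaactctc
Cnn1: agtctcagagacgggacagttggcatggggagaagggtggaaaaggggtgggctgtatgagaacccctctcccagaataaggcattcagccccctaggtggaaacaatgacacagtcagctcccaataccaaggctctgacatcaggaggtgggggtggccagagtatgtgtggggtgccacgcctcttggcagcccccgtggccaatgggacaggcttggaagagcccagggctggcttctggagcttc

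The Myl9 stretch holds a CArG box 161 to 152 bases before the start and a near form at 99 to 90. The Acta2 stretch holds 2 near forms, at 84 to 75 and 34 to 25, and the Cnn1 stretch neither form. Among 32851 promoter stretches of that length in the table, 1.47% hold a CArG box and 7.24% the near form, read on both strands. Both forms read the same from either strand, and the near form excludes the CArG box itself. A match describes the letters only. Of the 9 genes 6 were in the table (Vim, Cd44, Acta2, Cnn1, Myl9 and S100a4), and Cdh2, Cdh11 and Tagln were not.

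Smooth muscle alpha-actin, the gene Acta2 (ENSMUSG00000035783.8, chromosome 19, bases 34241090 to 34255590, minus strand), was low in most libraries. It stood at 48.1, 7.02 and 3.60 CPM in brain, where the highest value is Healthy brain 1, and at 14.75, 19.2 and 8.01 CPM in SHH tumors. Myc tumors held 17, 9.44, 23.5 and 157 CPM, extracranial tumors 16.97, 180.3, 14.7 and 4.96 CPM and grafts 35.15, 75.25 and 20.1 CPM. Myc CNS tumor 4 and Extracranial tumor 2 stood far above the rest. Actins are nearly identical in sequence, and how reads matching several genes were counted was not given, so the Acta2 level is uncertain.

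Transgelin, an actin-binding protein of smooth muscle, is encoded by Tagln (ENSMUSG00000032085.5, chromosome 9, bases 45929619 to 45936058, minus strand). It ranged from 2.83 to 18.2 CPM in brain and 4.65 to 8.72 CPM in SHH tumors. Myc tumors held 12.0, 4.95, 6.62 and 31.2 CPM, extracranial tumors 9.41, 9.92, 3.79 and 1.87 CPM and grafts 8.89, 20.2 and 8.46 CPM. The highest libraries were Myc CNS tumor 4 (31.2 CPM), Syngeneic graft 2 (20.2 CPM) and Healthy brain 1 (18.2 CPM). On the opposite strand Tagln overlaps the antisense gene Gm48529, which had 70 to 889 counts, and the end of Pcsk7. The strand setting of the counting was not given either, so reads of these genes may not be fully apart.

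Calponin 1, the gene Cnn1 (ENSMUSG00000001349.5, chromosome 9, bases 22099216 to 22109630, plus strand), damps the myosin motor of smooth muscle. It was the lowest of the contractile genes, at 2.15, 0.155 and 0.39 CPM in brain and 1.08, 0.68 and 0.40 CPM in SHH tumors. Myc tumors had 3.39, 0.417, 0.70 and 12.8 CPM, extracranial tumors 0.34, 4.67, 9.16 and 0.10 CPM and grafts 0.28, 0.26 and 0.15 CPM. Its low values rest on few reads, such as 3 counts in Extracranial tumor 4 and 7 in Extracranial tumor 1. The grafts lay below all SHH and all Myc tumors.

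The regulatory light chain of smooth muscle myosin is encoded by Myl9 (ENSMUSG00000067818.6, chromosome 2, bases 156775420 to 156781658, plus strand). Brain held 23.1, 11.2 and 11.2 CPM and SHH tumors 21.8, 46.7 and 24.0 CPM. Myc tumors held 16.5, 3.39, 37.3 and 66.9 CPM, grafts 21.6, 20.6 and 9.04 CPM and extracranial tumors 6.44, 264, 39.25 and 22.4 CPM. As with Acta2, Extracranial tumor 2 had the highest level of all 17 libraries.

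Over the 40 tests of these 4 genes, the adjusted p ran from 0.074 to 0.994. The smallest belonged to Myl9 in extracranial tumors against brain (2.45 ± 1.10), which passed with DESeq2 (adjusted p = 0.0294), limma voom (0.0284) and without Extracranial tumor 1 (0.0322). Its libraries overlapped with those of brain. Next came Cnn1 in grafts, at -4.26 ± 1.58 against Myc tumors (adjusted p = 0.111) and -3.97 ± 1.56 against extracranial tumors (adjusted p = 0.13). These were called by DESeq2 (adjusted p = 0.00716 and 0.0149), and the first also by limma voom (0.047). Against brain limma voom also called Acta2 higher in Myc tumors (adjusted p = 0.018), extracranial tumors (0.0411) and grafts (0.00117). It called Tagln higher in Myc tumors (0.0122) and grafts (0.00112), Cnn1 higher in Myc tumors (0.0198) and Myl9 higher in SHH tumors (0.0364). On the compared groups alone, edgeR called Acta2 higher (0.0463) and Cnn1 lower (0.0355) in grafts against SHH tumors. Healthy brain 1, which held pituitary and muscle transcripts, was the highest brain library for all 4 genes. Without it, Tagln rose in Myc tumors against brain (2.21, adjusted p = 0.0483). Leaving out the 4 libraries with such transcripts together gave 3.60 for Acta2 and 2.29 for Tagln in Myc tumors against brain (adjusted p = 0.0323 and 0.0468).

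Markers of the vessel wall were summed beside them. The 10 markers of pericytes and vascular smooth muscle summed to 312 to 410 CPM in brain and 193 to 263 CPM in SHH tumors. For Myc tumors the sum was 260 to 892 CPM, for extracranial tumors 205 to 1141 CPM and for grafts 549 to 635 CPM. All 10 were detected in every library. Extracranial tumor 4, with the highest sum of 1141 CPM, had 4.96 CPM of Acta2. It held 1.05 CPM of Myh11, the smooth muscle marker among the 10, so its high sum came from other markers. Extracranial tumor 2 had 866.5 CPM of the markers, 11.2 CPM of Myh11 and 180.3 CPM of Acta2. The part of vessel wall cells in the Acta2 levels was not tested. Myh11 and Myocd, chosen after their values were seen, are the smooth muscle myosin heavy chain and the SRF partner that drives the smooth muscle program. Myh11 stayed between 1.05 and 21.0 CPM in all 17 libraries, and Myocd between 0.03 and 0.46 CPM.

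Of 20 listed genes of smooth muscle contraction and its actin regulators 12 rose and 1 fell in Myc tumors against brain (median log2 fold change 1.27, against -0.01 over all genes), beside 25.3% of all genes higher and 26.8% lower. The gene that fell was Mylk, the myosin light chain kinase gene, named after its value was seen (-1.43 ± 0.56, adjusted p = 0.0442). In extracranial tumors 11 rose and 1 fell (median 1.27, against 0.05), beside 26.1% and 26.1%, and in grafts 10 rose and none fell (median 1.22, against -0.16), beside 24.9% and 30.4%. In SHH tumors none rose and 1 fell (median -0.50, against -0.02), beside 2.44% of all genes higher and 1.94% lower. Against SHH tumors 12 rose in Myc tumors, 13 in extracranial tumors and 11 in grafts, beside 19.0%, 18.6% and 20.4% of all genes, and none fell.

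Cnn2, the calponin of non-muscle cells, averaged 14.35 ± 5.75 CPM in brain (SD, n = 3) and 15.4 ± 3.16 in SHH tumors (SD, n = 3). It reached 194 ± 39.8 in Myc tumors (SD, n = 4), 272 ± 115 in extracranial tumors (SD, n = 4) and 211 ± 44.7 in grafts (SD, n = 3). Cald1, which encodes caldesmon, rose by 4.34 ± 0.44 in Myc tumors, 2.94 ± 0.40 in extracranial tumors and 4.002 ± 0.436 in grafts against brain. Tagln2, the transgelin of non-muscle cells, rose by 3.80 ± 0.70 in extracranial tumors (adjusted p = 0.000553). Vcl, which encodes vinculin of the adhesion sites, rose by 2.96 ± 0.51 in Myc tumors and 3.33 ± 0.53 in grafts against brain. Flna, the actin cross-linker filamin A, rose against SHH tumors by 2.16 ± 0.36, 2.28 ± 0.36 and 2.54 ± 0.37 in Myc tumors, extracranial tumors and grafts. So Cnn2 and Cnn1, and Tagln2 and Tagln, differed in their calls, but the difference within each pair was not itself tested.

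**Figure D4:**
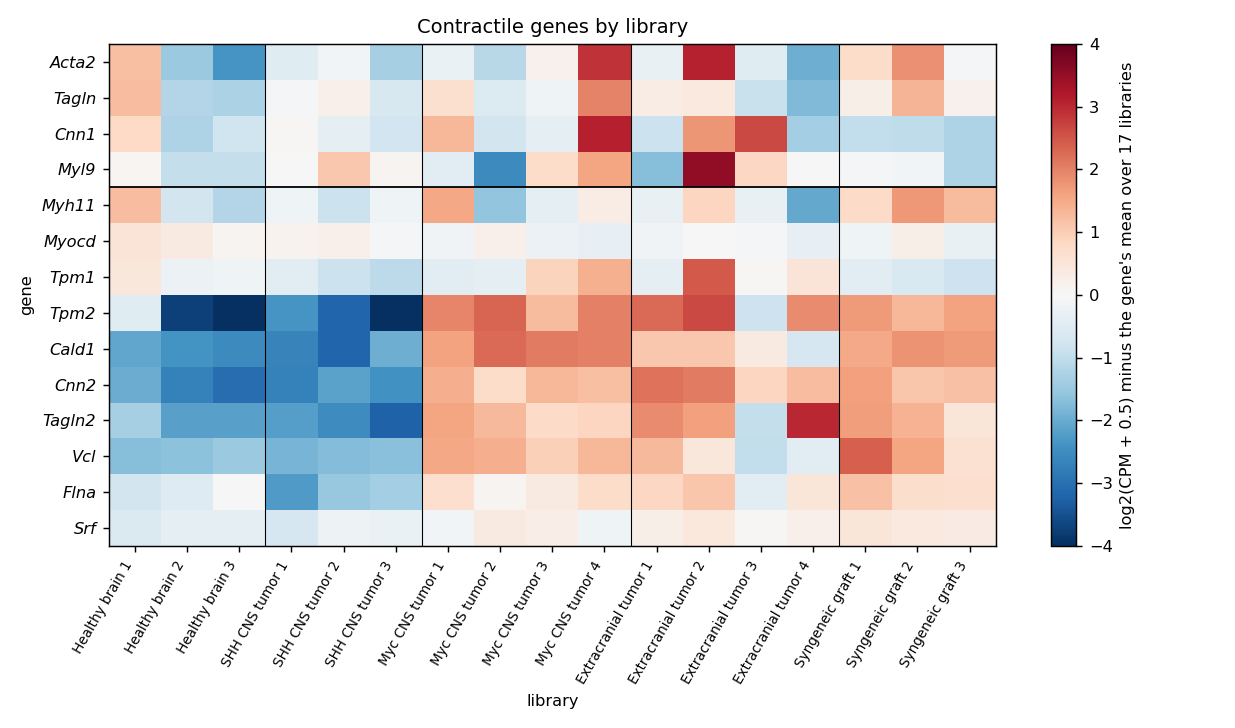
Heat map of log2(CPM + 0.5) minus each gene's mean over the 17 libraries (colour), for the 4 contractile members (above the line) and 10 related genes (below), with libraries grouped by vertical lines. Red in the upper rows gathers in single libraries such as Extracranial tumor 2 and Myc CNS tumor 4, while Cnn2, Cald1 and Tagln2 are blue in all brains and SHH tumors; the scale is capped at 4 and -4.

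S100a4, also called fibroblast-specific protein or metastasin, is a calcium-binding protein tied to cell movement (ENSMUSG00000001020.8, chromosome 3, bases 90603771 to 90606045, plus strand). As counted, it was the rarest of the 9 genes in brain, with 5, 1 and 0 counts in the 3 libraries (0.0397, 0.0097 and 0 CPM). Its level is uncertain, since most of its span overlaps another gene on the same strand. In the library with 0 counts a level of up to 0.0239 CPM is allowed (3 counts, counting error only). SHH tumors had 0.129, 0.188 and 0.0113 CPM and grafts 0.0562, 0.147 and 0.261 CPM. Myc tumors had 4.32, 0.73, 2.03 and 3.51 CPM, and extracranial tumors 15.95, 7.94, 0.179 and 15.8 CPM. Extracranial tumor 3, with 6 counts, lay inside the range of SHH tumors and grafts.

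S100a4 rose in Myc tumors (7.15 ± 1.56, edgeR adjusted p = 0.00179) and extracranial tumors (9.06 ± 1.68, adjusted p = 0.000562) against brain. Since brain held 6 counts in all, these fold changes are imprecise. Against SHH tumors it rose by 4.64 ± 1.38 in Myc tumors (adjusted p = 0.0157) and 6.55 ± 1.5 in extracranial tumors (adjusted p = 0.00391). The first of these was lost without SHH CNS tumor 3 (adjusted p = 0.0529). Grafts fell below extracranial tumors (-5.94 ± 1.44, adjusted p = 0.0368), a call lost without Syngeneic graft 1, 2 or 3 (0.145, 0.132 and 0.115) or Extracranial tumor 4 (0.0511), and the libraries overlapped. Against Myc tumors the grafts were lower in every library, at -4.03 ± 1.31, with an adjusted p of 0.0774 (0.00376 with DESeq2 and 0.00938 with limma voom). Grafts against brain gave 3.12 ± 1.38 (adjusted p = 0.0684), which passed with DESeq2 (0.0289), with limma voom (0.00195) and without Healthy brain 1 (0.0471). On the same strand Gm42674, which had 0 counts in all libraries, overlaps S100a4 from base 90603771 to base 90605885. S100a4 ends past that overlap, at base 90606045. How reads shared by these genes were counted is unknown.

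Of 11 other S100 genes 8 rose and none fell in Myc tumors against brain (median log2 fold change 3.77, against -0.01 over all genes), beside 25.3% of all genes higher and 26.8% lower. In extracranial tumors 7 rose and 1 fell (median 3.90, against 0.05), beside 26.1% and 26.1%, and in grafts 4 rose and 1 fell (median 2.23, against -0.16), beside 24.9% and 30.4%. Against SHH tumors 8 rose in Myc tumors, 8 in extracranial tumors and 5 in grafts, beside 19.0%, 18.6% and 20.4% of all genes, with none, 1 and 1 lower. S100a6, or calcyclin, averaged 6.45 ± 4.87 CPM in brain (SD, n = 3) and 2330 ± 900.0 in Myc tumors (SD, n = 4), a rise of 8.50 ± 1.23 (adjusted p = 9.43e-05). S100a11 rose by 4.19 ± 0.66 in Myc tumors, 4.57 ± 0.68 in extracranial tumors and 3.53 ± 0.66 in grafts against brain.

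S100a3, S100a4, S100a5 and S100a6 lie side by side on the plus strand of chromosome 3, between bases 90560578 and 90624181. S100a5 shared the low levels of S100a4 in the grafts, at 0.0562, 0.0737 and 0.334 CPM, and in Extracranial tumor 3, at 0.239 CPM. The other extracranial tumors held 28.4, 22.4 and 76.8 CPM of S100a5 and the Myc tumors 3.55, 26.5, 15.7 and 33.8 CPM. It fell in grafts against both Myc tumors (-6.91 ± 1.64, adjusted p = 0.0301) and extracranial tumors (-7.59 ± 1.69, adjusted p = 0.0303). S100a6 held 471, 511 and 669 CPM in the grafts, against 1665 to 3605 CPM in Myc tumors and 12.1, 3.65 and 3.62 CPM in brain. As counted, the grafts held S100a6 at 471 CPM or more with S100a4 and S100a5 at or below 0.334 CPM. The S100a4 level is uncertain, as said above. S100a3, chosen after its values were seen, stayed at or below 7.56 CPM in all libraries.

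**Figure D5:**
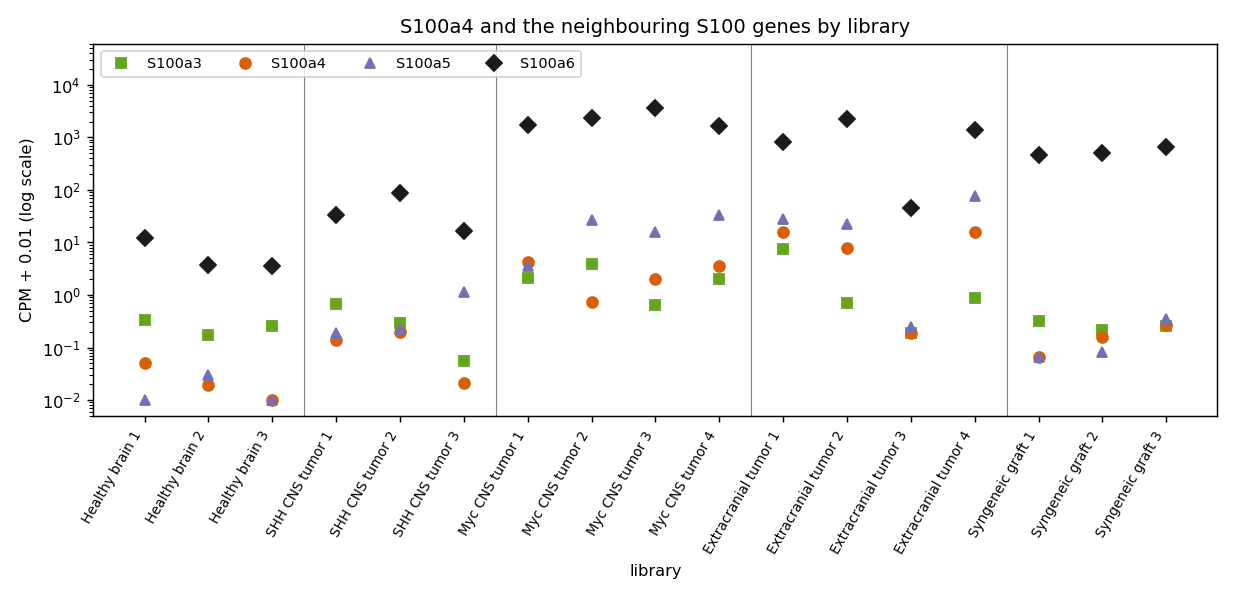
CPM plus 0.01 on a log scale (y axis) of S100a3, S100a4, S100a5 and S100a6 in each of the 17 libraries (x axis, groups parted by vertical lines). S100a4 and S100a5 are low in the 3 grafts and in Extracranial tumor 3, where S100a6 stands at 45.7 CPM against 822 to 2196 CPM in the other extracranial tumors.

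For each gene some library of a group must be the lowest and another the highest. Extracranial tumor 3 had the lowest Vim (276 CPM), Cd44 (52.0 CPM), Cdh2 (1.40 CPM) and S100a4 (0.179 CPM) of its group, and the highest Cdh11 (889 CPM) and Cnn1 (9.16 CPM). Without it the rises of Vim, Cd44 and S100a4 against brain were larger (4.38, 6.79 and 9.47), and Cdh2 gave -3.42 (adjusted p = 0.00409). None of the 8 calls for extracranial tumors against brain or SHH tumors was lost without it. Its total count was 31768997, within the range of the group.

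By the likeness of their levels over the 17 libraries (root mean square difference of centred log2(CPM + 0.5), 11329 genes with a mean of at least 10 CPM searched), the nearest genes to Vim were Atp10a (0.52), Dock5 (0.66) and Msrb3 (0.66). Vim itself varied by 1.99 about its mean on that scale. Plaur (0.51), the urokinase receptor gene, came nearest to Cd44, which varied by 2.97, followed by Lgals1 (0.68) and Emp1 (0.73). For Cdh2 the nearest were Armcx4 (0.69), Chst10 (0.80) and Dclk1 (0.84), and for S100a4 Pxdc1 (0.65), Cd9 (0.72) and Pttg1ip (0.80). Cdh11 had no close match, with Sema3c (1.18) the nearest, followed by Fndc1 (1.37) and Nynrin (1.42).

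The contractile genes had matches of middling closeness. Myl9, which varied by 1.34, was nearest to Trps1 (0.85), the actin-associated Palld (0.89) and the tropomyosin gene Tpm1 (0.96). Igfbp7 (0.97), St3gal4 (1.11) and Cebpd (1.12) came nearest to Acta2, which varied by 1.51. Tagln, which varied by 0.96, was nearest to Adgrl4 (0.66), an endothelial gene, Tmem41b (0.72) and B4gat1 (0.73). Pam (0.82), Ctnnb1 (0.83) and Gstp1 (0.85) came nearest to Cnn1, which varied by 1.37. Ctnnb1, which encodes beta-catenin of the cadherin complex, was highest in Extracranial tumor 3 (2340 CPM) and Myc CNS tumor 4 (2339 CPM), the libraries with the highest Cnn1 (9.16 and 12.8 CPM). Since Ctnnb1 was picked by its likeness to Cnn1 over these libraries, the shared peaks are no separate result. Genes can be alike on this measure because both vary little.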

How the data were processed

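Raw read counts per gene were deposited by the authors as 1 table for each of 17 libraries of polyA RNA (TruSeq Stranded, total RNA from a miRNeasy kit, per the labels' protocols). STAR 2.5.3a and mm10 are named in the submitters' processing notes. Which tool counted reads, with which strand setting and which rule for ambiguous reads, is not given in the sources used here. Of 50600 gene IDs, 50376 were matched to symbols once version numbers were removed. Groups follow the titles and tissue labels.

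Counts were fitted in edgeR 4.0.16 (R 4.3.3) with TMM scaling, filterByExpr at a minimum count of 10, and 1 robust quasi-likelihood fit of all 17 libraries, with 10 pairwise contrasts. P-values were adjusted by Benjamini-Hochberg over 21494 genes, which held 99.96% of counts, and called under 0.05. Values with ± in contrasts are log2 fold changes with SE. This SE was worked back from the test, as the size of the log2 fold change over the square root of its F statistic. Library totals ran from 18685672 to 130835711. Alternatives were other scaling, other count filters, DESeq2 1.42.0, limma voom (3.58.1), the compared groups alone, the replicate number as a block, and leaving out libraries. The fit was also run on simulated counts. Their spread followed the trend over all genes, not each gene's own, so that run does not test the member calls. Python 3.11.15 made tables and figures.

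The members and lists were chosen with earlier results of these data known. Beyond the 9 members, genes were named where they were among the 3 called genes of a list with the smallest adjusted p in a comparison, or the 3 nearest to a member by level over libraries.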

Additional observations from a re-analysis of the deposited data

Results flagged for a closer look

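In groups of 4 libraries, 1 library stood apart from the other 3 by Dixon's criterion in 5 of 18 cases of a gene and a group. For values with a normal spread, chance does this in about 1 of 20 groups. CPM need not have that spread, and several cases share a library, so the rates were not compared. Cdh11 stood at 571 CPM in Myc CNS tumor 1, against 12.0 to 35.9 CPM in the other Myc tumors. Acta2 stood at 157 CPM in Myc CNS tumor 4, against 9.44 to 23.5 CPM in the others. Extracranial tumor 2 accounted for the other 3 cases. It held 57.8 CPM of Cdh2, against 1.40 to 10.9 CPM in the other extracranial tumors, 180.3 CPM of Acta2, against 4.96 to 16.97 CPM, and 264 CPM of Myl9, against 6.44 to 39.25 CPM. Skeletal muscle markers were raised in Myc CNS tumor 1 (104.6 CPM) and Extracranial tumor 2 (111 CPM) and stood at 12.8 CPM in Myc CNS tumor 4. Their part in these values was not tested.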

How the results depend on the processing

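Over 90 pairs of a member and a comparison, 26 of them called, 1463 alternative values were computed: 1385 kept their side of the threshold, 36 gained and 40 lost the call, and 2 became called in the opposite direction. In 88 alternatives over 25 pairs the sign differed from the reported one, and none of these pairs was called to begin with. The 2 that became called were Cdh11 in Myc tumors against brain (-2.33) and SHH tumors (-1.37) without the 4 libraries with muscle or pituitary transcripts. Members called moved to 4 with limma voom and 2 on the compared groups alone in SHH tumors against brain. They moved to 7 with limma voom and 7 without those 4 libraries in Myc tumors against brain, and to 7 with limma voom in grafts against brain. Against SHH tumors, they were 2 in extracranial tumors and 6 in grafts on the compared groups alone, and 2 in extracranial tumors when Healthy brain 1 and SHH CNS tumor 1 were both left out. Extracranial against Myc tumors gave 1 without the 4 libraries. Grafts against Myc tumors gave 0 with every gene that had a count, 3 with DESeq2 and 3 with limma voom. Grafts against extracranial tumors gave 0 on the compared groups alone and 1 without the 4 libraries. The cause was not tested.

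With 1 library left out, members called against brain ran from 0 to 0 (SHH tumors), 4 to 5 (Myc tumors), 4 to 5 (extracranial tumors) and 3 to 5 (grafts). Against SHH tumors it gave 2 to 4, 3 to 4 and 2 to 3. It gave 0 to 0 in extracranial against Myc tumors, 0 to 1 in grafts against Myc tumors and 0 to 2 in grafts against extracranial tumors.

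With the replicate number as a block, members called fell to 0 in grafts against Myc tumors (2.69% of all genes) and 0 against extracranial tumors (2.0%). Vim in extracranial against SHH tumors had an adjusted p of 0.0576 under the block, and S100a4 in grafts against brain passed (0.0431). Same-numbered libraries of different groups did not deviate together: 2 of 31 pairs had a correlation over 0.1 (range -0.18 to 0.14). The labels give the numbers no further meaning.

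Counts over all genes moved in SHH tumors against brain from 940 to 62 without Healthy brain 3, 474 when Healthy brain 1 and SHH CNS tumor 1 were both left out, 585 with every gene that had a count, 2875 with DESeq2 and 7498 with limma voom. In extracranial against SHH tumors 8223 became 4585 on those groups alone. Extracranial against Myc tumors ran from 4 to 0 with limma voom and 1232 with DESeq2. Grafts against Myc tumors ran from 1290 to 58 without Syngeneic graft 2, 578 with the block, 3753 with DESeq2 and 4030 with limma voom. Grafts against extracranial tumors ran from 1028 to 56 without Syngeneic graft 2, 109 on those groups alone, 430 with the block, 1970 without Extracranial tumor 1 and 3733 with DESeq2. Scaling by total counts alone changed the share of called genes that were higher from 55.7% to 79.8% in SHH tumors against brain, from 46.5% to 33.7% in Myc and from 48.5% to 34.1% in extracranial against SHH tumors. It moved the median log2 fold change of all genes by 0.24, -0.27 and -0.29 in these comparisons and -0.26 in grafts against SHH tumors. It lost no call among the members and added Cdh2 in grafts against SHH tumors (-2.54, adjusted p = 0.0462). S100a4 in brain and Cnn1 in grafts rest on 6 and 38 counts in all.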
